A study of Mus musculus with 32 samples.

Results

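The untreated dorsal lateral prostate (DLP) of male C57/BL6 mice was compared with the urethra of untreated male C57/BL6 mice, using 4 libraries of each tissue, which are 8 of the 32 libraries of the series. The series profiled 3 adult tissues (DLP, anterior prostate and prostatic urethra) with and without hormone implants, plus embryonic urogenital sinus in culture. The treated mice carried subcutaneous implants for 2 weeks, 25 mg of testosterone and 2.5 mg of oestrogen (T+E2), and the untreated mice received no hormone. Tissues were frozen directly after dissection and total RNA was sequenced, so each library held all cell types of the piece taken, and the sources used here give neither the age of the mice nor how far the dissected urethra reached. The T+E2 libraries of the same tissues, 4 of each, served as a second measurement of the tissue difference. They also served to test whether that difference changed with T+E2. Libraries are named by tissue and by the number in their label.

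The DLP is a pair of lobes of branching glands whose luminal cells release proteins into the seminal fluid under the control of androgen. Around the lumen lie basal cells and a sheath of smooth muscle. The prostatic urethra is the duct into which the prostatic ducts, the ejaculatory ducts and small mucous glands open. It is lined by urothelium and wrapped, outside its smooth muscle, by a ring of striated muscle, the rhabdosphincter.

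Of the 13780 genes in the deposited table, 13287 reached 1 TPM or more in 4 or more of these 8 libraries and entered the test. TPM is an abundance scaled to a fixed library sum and corrected for transcript length, so levels of different genes can be set side by side. Differences were tested by limma on log2(TPM + 1), a gene was called where its p after Benjamini-Hochberg adjustment was below 0.05, and fold changes below are log2 of DLP over urethra with their standard errors. By this test 4405 genes were higher in DLP and 3870 were lower, 62.3% of the genes tested (33.2% higher, 29.1% lower). At least 2-fold, 917 genes were higher and 1341 lower, and at least 8-fold, 119 were higher and 326 lower. The 4 DLP and 4 urethra values did not overlap for 56.8% of the genes tested. With so many calls a gene list is read against these shares and against the median of all genes tested, which was 0.05 on the log2 scale.

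The tissues stood far apart. A single principal component held 90.6% of the variance and separated DLP from urethra. Correlations between libraries, over genes, were 0.983 to 0.991 within DLP, 0.978 to 0.990 within urethra and 0.760 to 0.813 between them. No measure of depth is kept in TPM, so the reads behind a value are unknown. A fixed library sum also ties genes together: the 10 most abundant genes took 31.2% to 38.5% of TPM in DLP and 27.9% to 31.6% in urethra. When the prostate secretion and seminal vesicle lists were left out and TPM was rescaled, the median of all genes moved to 0.57. Then 9626 genes were higher in DLP and 1858 lower. This put 83.8% of the calls on the higher side, against 53.2% on the deposited scale. That rescaling took out abundant DLP transcripts and kept the abundant transcripts of the urethra. Leaving out genes over 5000 TPM in either tissue gave a median of 0.08, with 57.4% of calls on the higher side. Medians were 0.01 with median-of-ratios scaling, 0.12 with quantile normalization and 0.13 with the length trend removed. A difference smaller than the shift from 0.05 to 0.57 can change direction under the first rescaling.

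Some libraries held more transcripts typical of the other tissue than their replicates did. Skeletal muscle genes took 0.0702, 0.167, 0.0863 and 0.0828 percent of TPM in DLP replicates 7, 8, 9 and 10, and 7.58, 7.69, 9.08 and 9.07 percent in urethra replicates 6, 7, 8 and 10. Prostate secretion genes took 16.1, 9.12, 12.03 and 10.9 percent in the DLP libraries and 0.197, 1.19, 3.27 and 0.200 percent in the urethra libraries, in the same order. Muscle genes thus stood out in DLP replicate 8, and prostate secretion in urethra replicates 7 and 8. Without these 3 libraries, a choice made after seeing the data, 2879 genes were higher in DLP and 3460 were lower. The numbers 7, 8 and 10 occur in both tissues, but the labels do not say that equal numbers mark 1 animal or that each library is a separate animal, so the p-values speak only of the spread among these libraries, which may be technical.

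**Figure D1:**
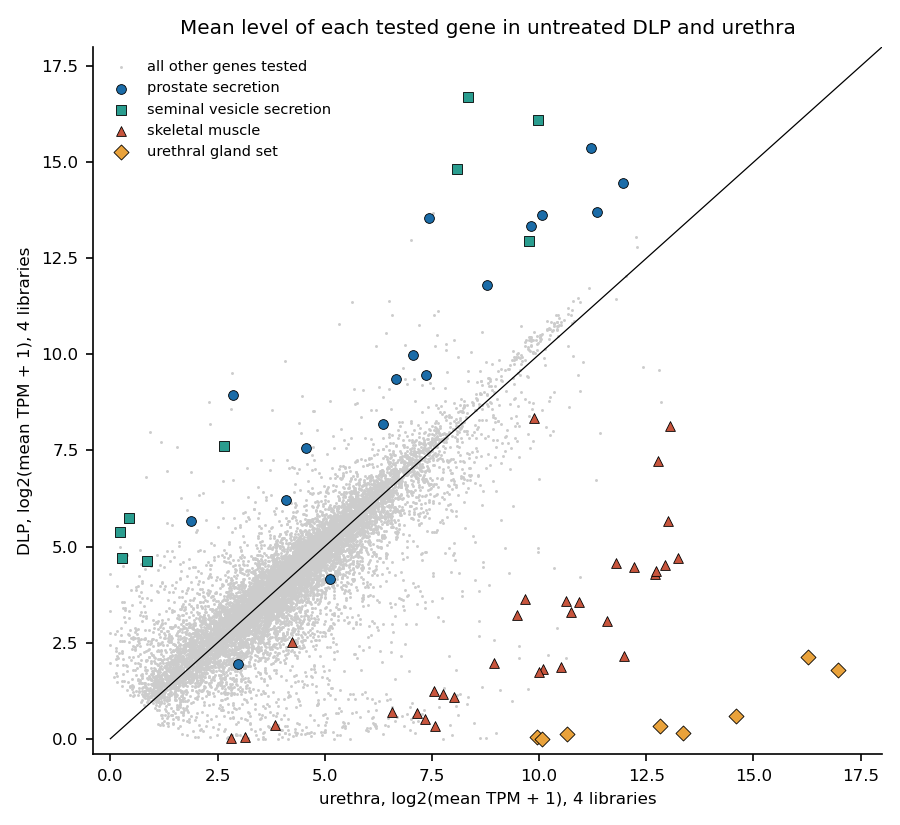
Mean level of each of the 13287 tested genes in DLP (vertical axis) and urethra (horizontal axis), as log2(TPM + 1) of the mean of 4 libraries each. Coloured points are the prostate secretion, seminal vesicle secretion and skeletal muscle lists and 8 urethral gland transcripts, and the diagonal marks equal levels; the muscle and gland points lie far below it and most secretion points far above it.

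Before any other comparison, the tissue labels were checked against defining markers. Probasin (Pbsn), Hoxb13 and Krt18 were higher in DLP, while Krt8 did not pass the test (292 ± 24.9 TPM in DLP and 291 ± 26.5 TPM in urethra; SD, n = 4 each). Bulk RNA cannot tell fewer cells of a type from less RNA per cell, here and in every comparison that follows. Urothelial markers did not mark the urethra as a group. Upk1a was lower in DLP (-0.93), but Upk1b (1.60) and Upk3a (1.45) were higher in DLP, Upk2 did not pass the test (though it was called lower in DLP, -0.30 with an adjusted p of 0.0284 without DLP replicate 8), and Krt20 was not analysed here. Upk3a stood far higher in DLP replicate 8 (15.8 TPM) than in the other DLP libraries, its value without that library was 0.78, and without DLP replicate 9 or without any 1 of urethra replicates 6, 7 and 10 it no longer passed the test (1.33 to 1.54). Skeletal muscle markers, in contrast, separated the libraries completely.

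Many secretory products of the lobe were higher in DLP. Probasin, a lipocalin that the prostate secretes and the classical androgen-regulated gene of the rodent prostate, had 33174, 39244, 52601 and 43654 TPM in DLP, against 732, 1948, 6304 and 548 TPM in urethra. Every DLP library lay above every urethra library, and urethra replicate 8 was the highest of its tissue. The log2 fold change was 4.80 ± 0.64 (adjusted p = 9.94e-05). Tgm4, the transglutaminase that cross-links seminal proteins into the copulatory plug, had 8212, 12757, 13801 and 13258 TPM in DLP, against 248, 229.8, 31.6 and 173 TPM in urethra. Here urethra replicate 8, the library richest in probasin, was the lowest of its tissue, and the log2 fold change was 6.45 ± 0.56 (adjusted p = 4.24e-06). Without urethra replicate 8 the log2 fold changes were 5.49 for Pbsn and 5.77 for Tgm4.

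The prostate secretion list had 17 tested members of 24 written, of which 12 were higher in DLP and 2 lower, with a median log2 fold change of 2.95. Msmb, the beta-microseminoprotein of seminal plasma, had 17151, 9347, 13579.5 and 13166 TPM in DLP, against 44.2, 1449.6, 8802 and 102 TPM in urethra, a log2 fold change of 4.72 ± 1.38. The beta-defensin gene Defb50 had 25342, 15582, 25416 and 23096 TPM in DLP, against 117, 2568, 12888 and 355 TPM in urethra, a log2 fold change of 4.34 ± 1.19. For both, urethra replicate 8 came close to the DLP libraries while urethra replicates 6 and 10 stayed far below, and without DLP replicate 8 and urethra replicates 7 and 8 the log2 fold changes were 7.74 for Msmb and 6.90 for Defb50. Leaving out urethra replicate 8 alone gave 6.11 and 5.52, leaving out urethra replicate 6 gave 3.57 and 3.27, and leaving out urethra replicate 10 gave 3.97 for Msmb. With limma's robust option the adjusted p of Msmb was 0.0536. Fgl1, a fibrinogen-like protein best known from liver, had a log2 fold change of 6.27 ± 0.40, with 337 to 611 TPM in DLP and 2.44 to 12.2 TPM in urethra. The exceptions were Acpp (-1.01), which encodes prostatic acid phosphatase, and Timp4 (-1.12), an inhibitor of matrix metalloproteinases. Timp4 no longer passed the test without the 3 libraries named above (-0.80, adjusted p = 0.0888).

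Not every secreted product was even across the lobe's libraries. Sbp, the spermine-binding protein of mouse ventral prostate, had 47958, 1573, 52.3 and 1395 TPM in DLP, against 129, 3242, 808 and 112 TPM in urethra. Spink3, a secreted protease inhibitor, had 13249, 559, 27.8 and 523 TPM in DLP, against 54.4, 981, 674 and 61.2 TPM in urethra. DLP replicate 7 was highest and DLP replicate 9 lowest for both genes, the tissues overlapped, and neither passed the test (log2 fold changes 1.80 ± 1.81 and 1.40 ± 1.65, adjusted p = 0.409 and 0.482). Without DLP replicate 7 the log2 fold changes were 0.15 for Sbp and -0.10 for Spink3, and without DLP replicate 9 they were 3.42 and 2.85. The 2 genes together took 6.14, 0.214, 0.00803 and 0.192 percent of TPM in DLP replicates 7, 8, 9 and 10.

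Transcripts named for the seminal vesicle were the most abundant of all in DLP. Svs2, a coagulating protein of the copulatory plug, had 105075, 123799, 87405 and 106475 TPM in DLP, against 85.6, 198, 131 and 888 TPM in urethra, a log2 fold change of 8.95 ± 0.59 (adjusted p = 5.07e-07). Svs5 had 83771, 72573, 55816 and 69091 TPM in DLP, against 858, 1309, 94.2 and 1794 TPM in urethra, a log2 fold change of 6.72 ± 0.76. Pate4, a small cysteine-rich protein of seminal fluid, had 29529, 30737, 24977 and 30088 TPM in DLP, against 263, 316, 66.4 and 442 TPM in urethra, a log2 fold change of 7.01 ± 0.48. Urethra replicate 8 was the lowest urethra library for Svs5 and Pate4, and without it the value for Svs5 was 5.78, while Svs2 was at 9.64 without urethra replicate 10. These 3 genes alone made up 21.9, 22.8, 16.9 and 20.6 percent of TPM in DLP replicates 7, 8, 9 and 10, an even level, against 0.121, 0.183, 0.0292 and 0.313 percent in the urethra libraries.

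All 9 tested members of the seminal vesicle list were higher in DLP (median 5.15), but they were far from equal in level. Svs4 had 17745, 5729, 4009 and 4128 TPM in DLP, against 814, 1346, 22.5 and 1303 TPM in urethra, a log2 fold change of 3.90 ± 1.17, which was 2.51 without urethra replicate 8 and had an adjusted p of 0.0584 with limma's robust option. Svs6 reached only 99.9 to 331 TPM in DLP and 0.220 to 9.96 TPM in urethra, and Svs3b 22.6 to 78.2 TPM and 0 to 0.840 TPM. Svs3a and Svs3b are near-identical copies, so the reads of either cannot be assigned with certainty. In the untreated anterior prostate, the lobe that lies against the seminal vesicle, Svs2 was at 26.9, 56.3, 13.3 and 26856 TPM in replicates 6, 7, 8 and 9, with 1 library far above the rest. Seminal vesicle tissue was not profiled here, and its part in the DLP values was not tested.

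Stretches of 300 bases around the annotated start (250 before, 50 after) of 3 of these genes are shown because each holds the androgen response half-site TGTTCT, or AGAACA on the other strand, written in capitals. Sequences are from RefSeq, build GRCm38.p6, in the direction of the gene: Pbsn at chrX:77853451-77853750 (minus strand), 9530002B09Rik, a RIKEN transcript of the prostate secretion list, at chr4:122689009-122689308 (plus strand), and Svs5 at chr2:164332515-164332814 (plus strand).
Pbsn: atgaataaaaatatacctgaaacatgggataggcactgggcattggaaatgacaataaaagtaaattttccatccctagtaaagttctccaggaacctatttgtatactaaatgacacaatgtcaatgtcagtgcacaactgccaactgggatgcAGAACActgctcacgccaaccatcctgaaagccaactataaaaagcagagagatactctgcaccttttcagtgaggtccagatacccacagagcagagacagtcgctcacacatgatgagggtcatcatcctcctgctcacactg
9530002B09Rik: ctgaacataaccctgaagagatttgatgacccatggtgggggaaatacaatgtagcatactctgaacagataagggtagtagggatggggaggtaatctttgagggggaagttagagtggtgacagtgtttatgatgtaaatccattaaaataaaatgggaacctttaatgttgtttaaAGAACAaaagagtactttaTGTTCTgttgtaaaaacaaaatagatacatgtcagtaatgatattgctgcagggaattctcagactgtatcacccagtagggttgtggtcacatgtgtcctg
Svs5: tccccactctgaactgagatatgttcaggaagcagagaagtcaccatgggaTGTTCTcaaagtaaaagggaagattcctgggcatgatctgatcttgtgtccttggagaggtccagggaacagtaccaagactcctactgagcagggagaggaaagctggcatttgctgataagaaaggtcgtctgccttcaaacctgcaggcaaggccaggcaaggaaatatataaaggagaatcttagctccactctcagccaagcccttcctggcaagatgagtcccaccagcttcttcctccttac
The match began 95 bases before the start in Pbsn, 71 and 52 bases before it in 9530002B09Rik, and 199 bases before it in Svs5. Of the 9468 tested genes with a promoter in the reference table, 12.7% held the half-site on either strand. It was found in 5 of 11 promoters of the prostate secretion list, 6 of 8 of the seminal vesicle list and 3 of 22 of the skeletal muscle list. Among called genes at least 8-fold higher in DLP it was found in 27 of 81, and among those at least 8-fold lower in 49 of 222. These are matches of letters, and binding was not measured.

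Seminal genes that lie side by side shared their direction in the runs on chromosomes 2 and 9. On chromosome 2, all 7 protein-coding genes that RefSeq places between Svs2 and Slpi (Svs2, Svs3b, Svs4, Svs3a, Svs6, Svs5 and Slpi) were higher in DLP. Slpi, a secreted leukocyte protease inhibitor, was at 3.89 to 13.8 TPM in DLP and 0.120 to 1.53 TPM in urethra. On chromosome 9, 3 neighbouring genes of the Pate family were higher in DLP, and the most abundant, A630095E13Rik (Pate14 in RefSeq, matched by synonym), had 5339, 7914, 11549.7 and 7610.1 TPM in DLP, against 119, 196, 16.1 and 185 TPM in urethra. In the run from Prss32 to Sbp on chromosome 17, 4 genes were tested. Prss32, a serine protease (-1.87), Dcpp1 (-3.56) and Dcpp3 (-9.68) were lower in DLP, and Sbp was not called (1.80). The runs were picked after the values were seen.

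Further genes with large differences were not classical secretion markers. C1rb, a copy of the complement protease C1r, had 563, 814, 807 and 735 TPM in DLP, against 14.0, 6.99, 2.16 and 1.44 TPM in urethra, a log2 fold change of 7.04 ± 0.49. Gsdma, of the pore-forming gasdermin family, had 205, 292, 357 and 315 TPM in DLP, against 5.72, 4.57, 1.05 and 4.62 TPM in urethra (5.98 ± 0.34). Akr1b7, an aldo-keto reductase, had 1833, 2202, 1003 and 2080.3 TPM in DLP, against 24.5, 69.2, 20.4 and 42.1 TPM in urethra (5.57 ± 0.37). No library of these 3 genes overlapped with the other tissue. Defb42 (6.55), Glb1l3 (6.13), Fam115e (5.98) and Ms4a5 (5.77) were the other genes among the 12 largest positive differences under the naming rule, and Fam115e was at 5.35 without urethra replicate 8.

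C1rb, Gsdma and Fgl1 were higher still in untreated anterior prostate (3560.5 ± 362, 928 ± 70.7 and 1691 ± 148 TPM; SD, n = 4 each), while Akr1b7 was nearly absent there (1.92 ± 2.91 TPM). Msmb was likewise low in anterior prostate (45.2 ± 29.7 TPM). These anterior prostate values are given as levels and were not tested.

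Among the most abundant transcripts of the urethra were products known from glands that were at or near 0 in DLP. Prol1, a mucin of the mouse submandibular gland also called Muc10, had 0, 13.2, 0.190 and 0 TPM in DLP, against 66631, 77367, 84364 and 86464 TPM in urethra, a log2 fold change of -15.24 ± 0.74 (adjusted p = 5.46e-08). The RIKEN transcript 2310057J18Rik, a synonym of which is Leg1, was the most abundant transcript of every untreated urethra library. It had 0, 9.03, 0.590 and 0.160 TPM in DLP, against 152309, 136908, 107284 and 117247 TPM in urethra (-15.91 ± 0.61). Pip, the prolactin-induced protein of lacrimal and salivary fluid, had 0, 1.03, 0 and 0 TPM in DLP, against 8426, 6277, 8105 and 6098 TPM in urethra (-12.55 ± 0.23). DLP replicate 8 was the only DLP library above 1 TPM for these 3 genes, and without it the values were -16.17 for Prol1 and -16.66 for 2310057J18Rik.

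A set of 8 such transcripts, chosen after their values were seen (2310057J18Rik, Prol1, Gm7714, Smr2, Smr3a, Pip, Dcpp3 and Mup20), took 28.4, 26.7, 22.9 and 23.7 percent of TPM in urethra replicates 6, 7, 8 and 10. In DLP replicate 7 all 8 were listed at 0, and in DLP replicate 8 their sum was 0.00261 percent. Dcpp3, of the demilune cell and parotid protein family, was listed at 0 in all 4 DLP libraries and had 1264, 1879, 202 and 936 TPM in urethra. Mup20, a major urinary protein that acts as a male pheromone in urine, had 0 to 0.130 TPM in DLP and 1117 to 2426 TPM in urethra. The Dcpp and Mup genes belong to families of near-identical copies, so the split of reads among copies is uncertain. Urethral gland is only a name for this set here. No such gland was profiled on its own, and the source of these transcripts in the dissected piece was not tested.

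On chromosome 5, Smr3a, Smr2, Gm7714 and Prol1 are 4 consecutive protein-coding genes in RefSeq, and all 4 were lower in DLP by at least 9.45 on the log2 scale. Smr2, a product of submaxillary gland, had 0 to 0.470 TPM in DLP and 6851 to 16073 TPM in urethra. Other products known from saliva or mucous glands were also lower in DLP. They included Car6, a secreted carbonic anhydrase (-8.57), A4gnt, an enzyme that caps the sugar chains of gland mucins (-8.73), the androgen-binding protein genes Abpa (-7.50) and Abpb (-6.73), and Odam (-6.73). Lactoperoxidase, Lpo, an antibacterial enzyme of secretions, was at 14.3 ± 4.31 TPM in DLP and 68.6 ± 5.07 TPM in urethra (SD, n = 4 each; -2.23 ± 0.18).

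Chemokines and channels of mucosal glands followed. Ccl28, a chemokine that draws antibody-secreting cells to mucosae, had 0.300, 0.180, 0.460 and 0.110 TPM in DLP, against 73.6, 70.1, 75.0 and 65.5 TPM in urethra (-5.84 ± 0.10). Aqp5, the water channel of salivary acini, had 9.94, 6.47, 5.88 and 6.87 TPM in DLP, against 240.3, 219, 193 and 213 TPM in urethra (-4.73 ± 0.13). Kcnn4, a calcium-activated potassium channel, was also lower in DLP (-3.20), as was the chloride importer Slc12a2 (-1.63). In the opposite direction, DLP was higher in the anion exchanger Slc26a3 (4.22), the calcium channel Trpv6 (2.62) and the sodium pump subunit Atp1b3 (2.52). Of 30 tested genes for water and ion transport, 10 were higher and 15 lower, beside 33.2% and 29.1% of all genes. The share called higher was thus near that of all genes. The counts were 15 and 13 after rescaling without secretion genes.

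Mucosal defence genes differed in both directions. Of 22 tested, 9 were higher and 7 lower, beside 33.2% and 29.1% of all genes. DLP held more of the defensin Defb1 (1445 ± 251 TPM in DLP and 195 ± 286 TPM in urethra; SD, n = 4 each; 4.36 ± 1.00, and 3.55 and 5.41 without urethra replicates 6 and 8 in turn), of the acute phase gene Saa3 (5.43, and 6.13 without urethra replicate 7) and of complement C3 (2.02). Urethra held more of Cxcl17 (-4.10), a mucosal chemokine, and of Wfdc2 (-2.55). Pigr, the receptor that carries polymeric antibody into secretions, had nearly equal means (100.3 TPM in DLP and 98.9 TPM in urethra) and did not pass the test.

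**Figure D2:**
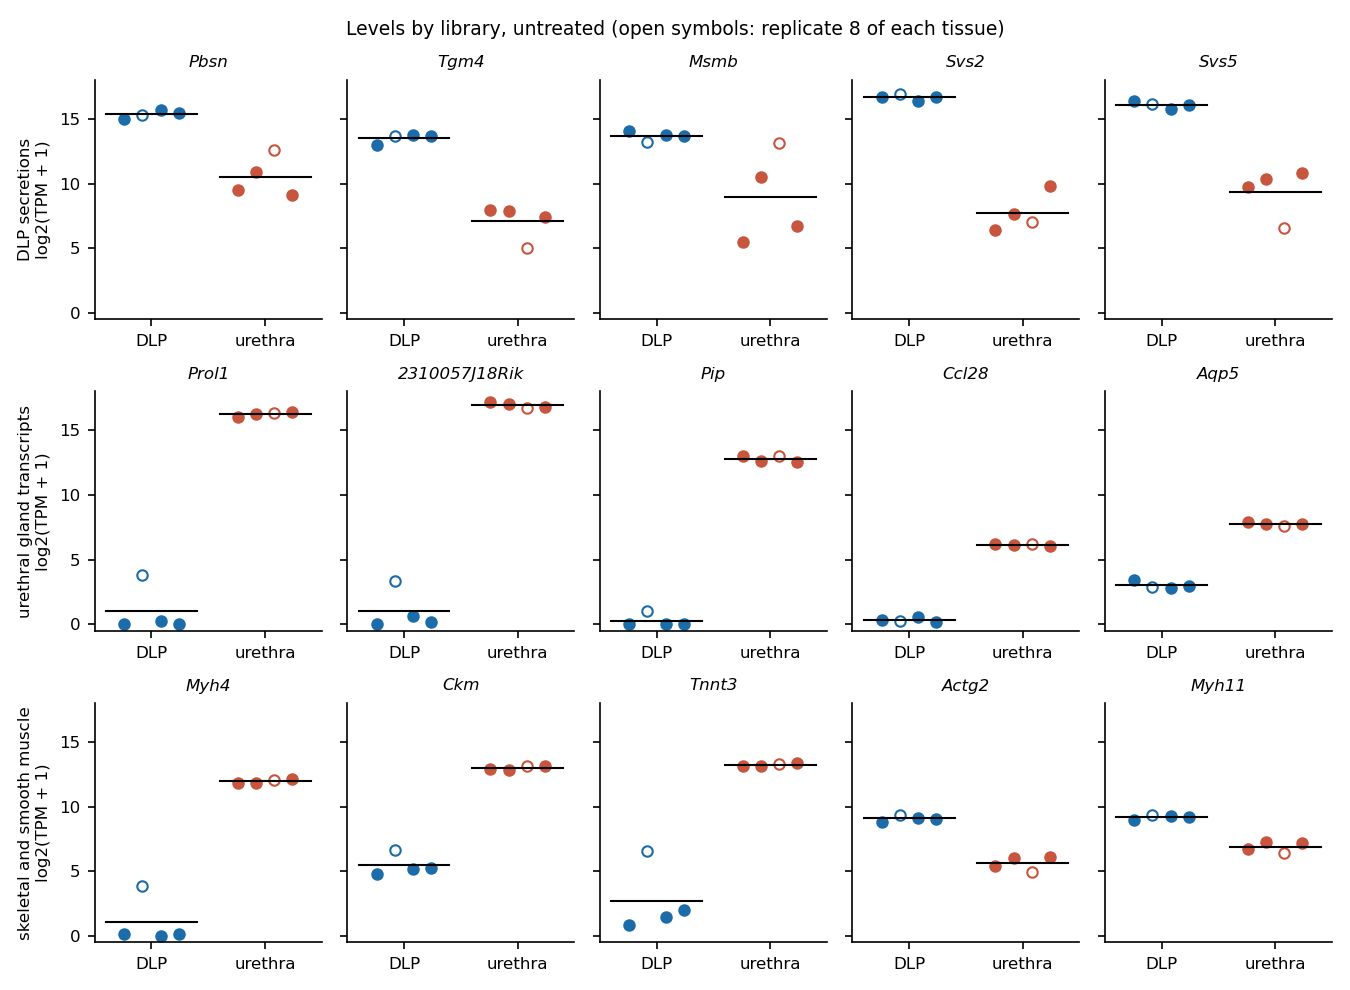
Level of 15 genes in each untreated library, as log2(TPM + 1), with 4 DLP libraries on the left and 4 urethra libraries on the right of each panel and a bar at the mean of the 4 log2 values. The rows hold DLP secretions, urethral gland transcripts, and skeletal and smooth muscle genes. Open symbols are DLP replicate 8, which lies above the other DLP libraries for Prol1, Myh4 and Tnnt3, and urethra replicate 8, which comes close to the DLP libraries for Msmb.

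Striated muscle was the second large group. Every one of the 32 tested skeletal muscle genes was lower in DLP, with a median of -7.38. Myh4, the fast IIb myosin heavy chain, had 0.0900, 13.6, 0.0200 and 0.110 TPM in DLP, against 3554, 3659, 4294 and 4593 TPM in urethra, a log2 fold change of -10.92 ± 0.74 (adjusted p = 6.62e-07), and without DLP replicate 8 the value was -11.87. Ckm, muscle creatine kinase, had 26.1, 99.2, 35.2 and 37.4 TPM in DLP, against 7779.6, 7333, 8957 and 8929 TPM in urethra (-7.54 ± 0.33). Acta1, skeletal alpha-actin, had 237, 361, 274 and 249.5 TPM in DLP, against 8010.5, 7496, 9497 and 9116 TPM in urethra (-4.93 ± 0.14). The urethra libraries lay within a narrow band for all 3 genes, and DLP replicate 8 was the highest DLP library for each. Without that library the values were also more negative for Tnnt3 (-11.79), Atp2a1 (-11.03), Mylpf (-10.58), Pvalb (-10.34) and Pgam2 (-8.71), members described next.

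By level, the muscle genes of the urethra were mostly those of fast fibres. Tnnt3, the fast troponin T, had 0.820 to 94.2 TPM in DLP and 8846 to 10819 TPM in urethra (-10.51, and -9.89 without DLP replicate 7), while slow Tnnt1 had 3.63 to 6.59 TPM in DLP and 15.4 to 22.9 TPM in urethra (-1.73). Tnnc2, the fast troponin C, had 109 to 206 TPM in DLP and 6235 to 7816 TPM in urethra, and slow Tnnc1 had 0.390 to 0.630 TPM in DLP and 1.23 to 1.78 TPM in urethra. Among the myosin heavy chains of the urethra, Myh1 (IIx) had 1428 to 1654 TPM, Myh8 (perinatal) 479 to 612 TPM and Myh2 (IIa) 9.63 to 16.8 TPM, so that Myh4 and Myh1 led and Myh2 came last of the 4 with no overlap between neighbours. Myl3, which encodes a light chain best known from slow fibres and heart, was an exception with 0 to 12.4 TPM in DLP and 1414 to 1776 TPM in urethra. Parvalbumin, Pvalb, the calcium buffer of fast fibres, had 0 to 10.1 TPM in DLP and 1280.2 to 1707 TPM in urethra (-9.51 ± 0.66).

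Regulators of muscle genes were present at low levels. Myod1 had 0 to 0.0400 TPM in DLP and 4.70 to 7.26 TPM in urethra, and Myog had 0 to 0.160 TPM in DLP and 7.26 to 8.72 TPM in urethra. The fuel-handling isoforms of muscle were lower in DLP too, with Eno3 (-7.44), Pgam2 (-8.06) and Pfkm (-5.02) all called.

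The promoters of 3 muscle genes are shown because each holds the letters CAGCTG, a form of the E-box bound by myogenic factors, in capitals, shortly before the start. Sequences are again from RefSeq, build GRCm38.p6, in the direction of the gene: Myh4 at chr11:67237562-67237861 (plus strand), Mylpf, the fast regulatory light chain (-9.59), at chr7:127211358-127211657 (plus strand), and Atp2a1, the calcium pump of fast fibres (-9.95), at chr7:126463024-126463323 (minus strand).
Myh4: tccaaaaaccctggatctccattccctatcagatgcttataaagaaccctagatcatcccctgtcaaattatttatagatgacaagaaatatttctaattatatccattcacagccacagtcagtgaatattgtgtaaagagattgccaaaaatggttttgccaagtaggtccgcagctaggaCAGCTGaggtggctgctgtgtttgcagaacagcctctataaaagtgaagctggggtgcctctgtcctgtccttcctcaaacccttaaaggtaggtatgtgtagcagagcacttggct
Mylpf: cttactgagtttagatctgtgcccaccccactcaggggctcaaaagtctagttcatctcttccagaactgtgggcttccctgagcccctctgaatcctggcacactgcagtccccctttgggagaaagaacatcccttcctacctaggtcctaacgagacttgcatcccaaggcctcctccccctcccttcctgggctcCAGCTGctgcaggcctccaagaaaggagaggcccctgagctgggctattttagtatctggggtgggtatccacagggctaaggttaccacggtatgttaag
Atp2a1: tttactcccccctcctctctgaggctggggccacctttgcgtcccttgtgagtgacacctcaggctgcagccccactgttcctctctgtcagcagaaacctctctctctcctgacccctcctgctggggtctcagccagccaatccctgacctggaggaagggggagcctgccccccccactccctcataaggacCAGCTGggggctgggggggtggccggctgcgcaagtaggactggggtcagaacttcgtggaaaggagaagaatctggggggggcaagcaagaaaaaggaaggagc
The match began 67, 51 and 55 bases before the start of Myh4, Mylpf and Atp2a1. CAGCTG reads the same on both strands, and it was present in 10 of 22 promoters of the skeletal muscle list, in 15.4% of all tested genes with a promoter, and in 2 of 11 promoters of the prostate secretion list. Binding was not measured here either.

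**Figure D3:**
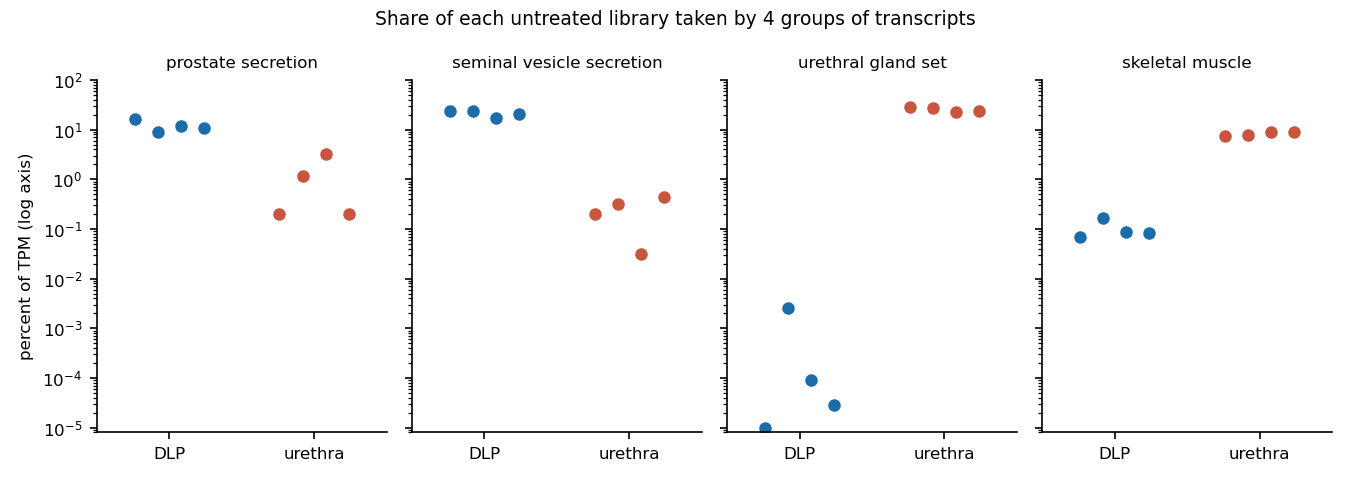
Share of total TPM taken by 4 groups of transcripts in each untreated library, on a logarithmic axis in percent, with DLP on the left of each panel and urethra on the right. Prostate and seminal vesicle secretion took 9.12 to 23.7 percent each in DLP, and skeletal muscle and urethral gland transcripts 7.58 to 28.4 percent each in urethra; shares of 0 are drawn at the lower edge.

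Transcripts of mitochondrial energy metabolism were lower in DLP. Of 51 tested genes of oxidative phosphorylation, 48 were lower and 2 higher (median -1.30). The complex I subunit Ndufs1 had 49.0 ± 4.89 TPM in DLP and 204 ± 15.7 TPM in urethra (SD, n = 4 each; -2.04 ± 0.09). The muscle share of the urethra libraries moved with these genes, and its part in the result was not tested. The median kept its sign after rescaling without secretion genes (median -0.73, with 42 lower).

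The prostate is known for secreting citrate, and the enzymes that handle it differed widely. Idh3a, a subunit of the isocitrate dehydrogenase of the citric acid cycle, had 24.2 ± 2.51 TPM in DLP and 261 ± 31.4 TPM in urethra (SD, n = 4 each; -3.38 ± 0.10). The fatty acid enzymes Scd1 (1.52) and Elovl6 (1.70) were higher in DLP. Of 34 tested members, 7 were higher and 22 lower, and without DLP replicate 8 and urethra replicates 7 and 8 4 were higher and 22 lower. In glycolysis, 12 of 20 were lower, among them Gapdh (-3.21) and Ldha (-2.07), while the glucose carrier Slc2a1 was higher (1.21). Idh3a, Gapdh and Ldha are abundant in striated muscle, and the part of the muscle share was not tested here either.

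Genes that handle zinc, which the prostate also accumulates, were mostly higher in DLP. Metallothionein Mt1 had 1757, 1803, 2651 and 2089 TPM in DLP, against 159, 206, 215 and 167 TPM in urethra (3.46 ± 0.15). Mt2 had 1401, 1398, 1882 and 1361 TPM in DLP, against 65.7, 98.5, 119 and 59.0 TPM in urethra (4.17 ± 0.21). The zinc exporter Slc30a2 (1.75) and the importer Slc39a8 (1.40) were higher in DLP too, and in all 14 of 21 tested zinc genes were higher and 2 lower. Arg2, the arginase that feeds ornithine into polyamine synthesis, was higher in DLP (3.18 ± 0.21), and Odc1, the rate-limiting enzyme, was modestly so (0.79 ± 0.08).

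The machinery that makes and exports secretory proteins was higher in DLP by small amounts and in many members. Of 42 genes of translocation and transport to the Golgi, 33 were higher and 1 lower (median 0.32), the lower one being Sar1b (-1.34). Of 38 N-glycosylation genes, 28 were higher and 3 lower, led by the mannosidase Man1a (3.15 ± 0.19). Ribosomal protein genes were higher in 37 of 49 (median 0.40), beside 33.2% of all genes tested. Without DLP replicate 8 and urethra replicates 7 and 8 fewer members passed, 20 of the transport list and 23 of the ribosomal list. The folding and stress genes were mixed, with Pdia6, a disulphide isomerase, higher (1.66) and Creb3l1 (-1.64) and Ero1lb (-1.60) lower.

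Transcription factors known from the prostate epithelium differed in both directions. Hoxb13, a homeobox gene of prostate and hindgut, had 217, 196, 279 and 239 TPM in DLP, against 27.6, 36.3, 54.4 and 24.2 TPM in urethra (2.73 ± 0.22). Gata2 (3.12), Gata3 (2.33), Pax2 (2.23) and Foxa1 (0.99) were also higher in DLP. Klf5 (-2.10), Runx1 (-1.27) and Sox9 (-1.20), all epithelial transcription factors, were lower. The list had 11 higher and 9 lower members of 21 tested, beside 33.2% and 29.1% of all genes.

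Genes of proximal luminal cells, the luminal cells of prostatic ducts near the urethra, were mostly lower in DLP: 13 of 17 were lower and 1 was higher (median -2.19). Krt4, a keratin of stratified lining, had 6.24, 14.3, 7.90 and 14.6 TPM in DLP, against 198, 133, 149 and 166 TPM in urethra (-3.85 ± 0.24). Psca, a surface antigen of such cells, had 10.6, 34.2, 10.9 and 20.9 TPM in DLP, against 308, 154, 229.9 and 285 TPM in urethra (-3.71 ± 0.35). Cyp2f2 (-4.30), Ppp1r1b (-2.72) and Cldn10 (-2.60) followed, and Clu was the member higher in DLP (1.02). Several of these genes are also made by urothelium and by gland ducts.

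General luminal genes went the other way, with 16 of 18 higher in DLP and 0 lower. Prom1 (2.56 ± 0.10), Dpp4 (1.35), Tmprss2 (1.23) and Krt19 (1.22) led them. Basal genes were lower in 12 of 16 and higher in 2, and after rescaling without secretion genes the counts were 8 and 6. Krt15 (-2.24) and Krt5 (69.7 ± 15.8 TPM in DLP and 137 ± 21.1 TPM in urethra; SD, n = 4 each; -0.98) were lower, Itga3 was higher (1.49) and Krt14 did not pass the test.

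**Figure D4:**
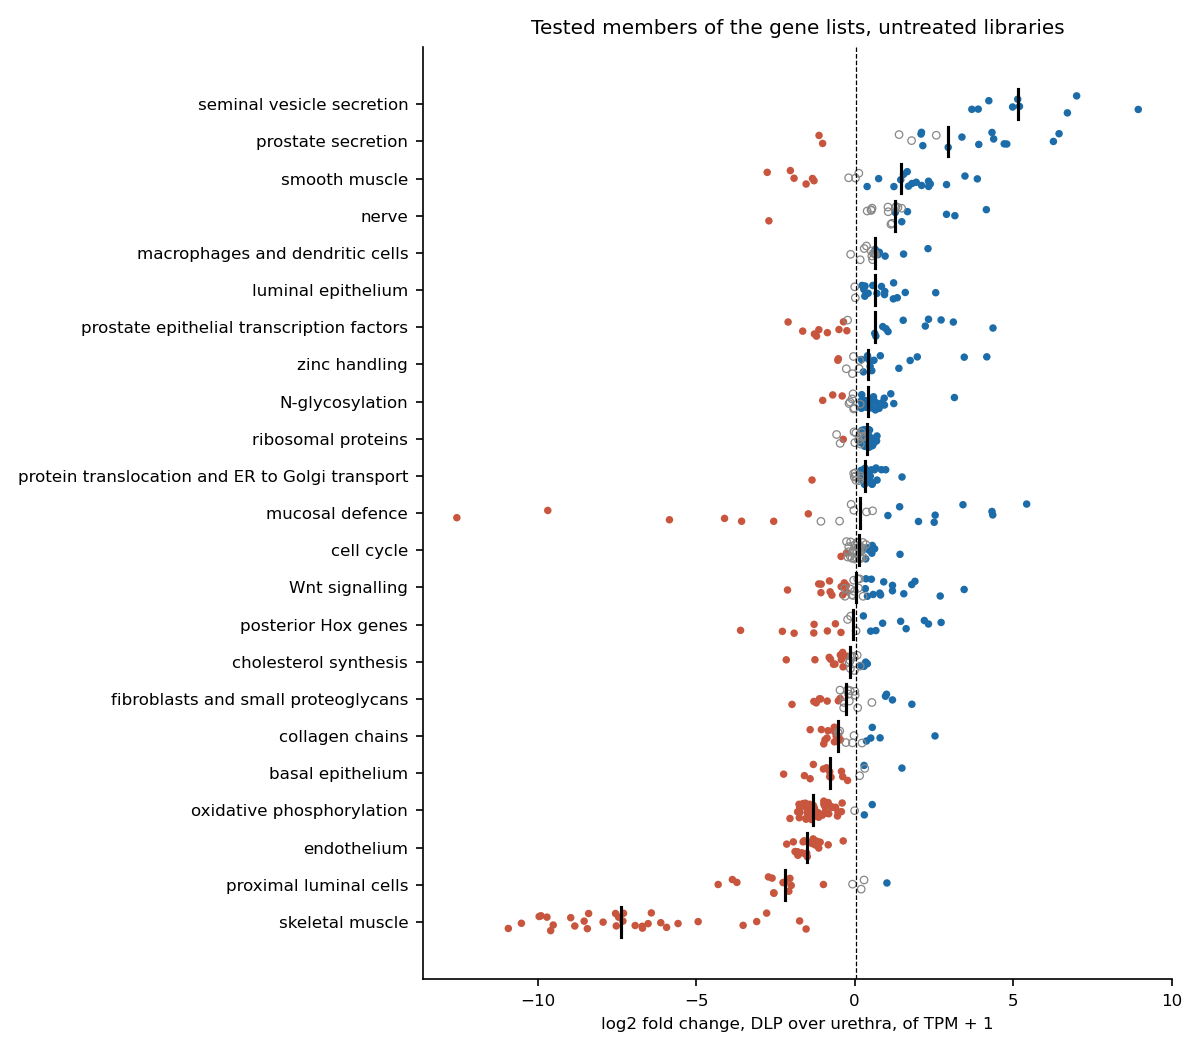
Log2 fold change of DLP over urethra for every tested member of 23 gene lists, untreated libraries, with filled points for called genes, open points for the others and a vertical tick at each list's median. The dashed line marks the median of all genes tested, 0.05; skeletal muscle lies at the far left and seminal vesicle secretion at the far right.

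Homeobox genes of the Hox clusters mark position along the body axis, and a list of 25 posterior ones had 20 tested members. The counts here are of that list and not of whole clusters. All 6 tested HoxB members were higher in DLP and all 3 tested HoxC members were lower. Hoxb9 had 30.1, 35.8, 30.7 and 34.5 TPM in DLP, against 6.82, 6.55, 5.60 and 4.16 TPM in urethra (2.33 ± 0.13), and Hoxb8 (2.20) and Hoxb6 (1.63) were higher as well. Hoxc10 had 0.860, 2.78, 1.82 and 2.06 TPM in DLP, against 27.4, 31.2, 35.0 and 38.6 TPM in urethra (-3.60 ± 0.20), with Hoxc6 (-2.28) and Hoxc9 (-1.91) also lower. The tissues did not overlap for either gene. Of 6 tested HoxA genes 1 was higher and 4 were lower, and of 5 tested HoxD genes 2 were higher, led by Hoxd8 (1.45), and 1, Hoxd13 (-0.86), was lower. All 6 HoxB genes were still called higher and all 3 HoxC genes lower under each of the 5 other scalings of the data.

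Smooth muscle genes were mostly higher in DLP, with some exceptions. Of 25 tested, 16 were higher in DLP and 6 lower (median 1.46). Actg2, the visceral smooth muscle actin, had 456, 651, 563 and 519.8 TPM in DLP, against 40.4, 63.7, 30.1 and 66.0 TPM in urethra (3.48 ± 0.23). Myh11, the smooth muscle myosin heavy chain, had 499, 664, 631 and 599 TPM in DLP, against 103, 150.5, 86.2 and 141 TPM in urethra (2.33 ± 0.17). Cnn1 (2.90), Tagln (2.39) and Acta2 (1.95) were also higher. Des (-1.53), Tpm1 (-2.76), Tpm2 (-1.91), Hspb6 (-2.03) and Jph2 (-1.33), all of which striated muscle also makes, were lower. The part of striated muscle in these values was not tested.

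Vessel genes were lower in DLP: all 22 tested endothelial genes were lower, with a median of -1.51. Cdh5, the cadherin of endothelial junctions, had 7.23, 11.1, 7.58 and 8.51 TPM in DLP, against 39.3, 41.1, 39.5 and 43.6 TPM in urethra (-2.14 ± 0.11). Pecam1 (-1.50) and Kdr (-1.82) were lower too. After rescaling without secretion genes 21 were lower and 0 higher.

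Fibroblast and matrix genes were more often lower than higher in DLP on the deposited scale. Of 24 fibroblast genes 4 were higher and 8 lower, and of 24 collagen chains 5 and 13, beside 33.2% and 29.1% of all genes. The share of fibroblast genes called lower was thus near that of all genes. After rescaling without secretion genes these counts were 8 and 5 for fibroblasts and 8 and 4 for collagens. The medians of both lists turned positive under that rescaling alone, and were negative on the deposited scale and under the other scalings. Relative to the median of all genes, the median of the collagen list was at -0.57 to -0.53 and that of the fibroblast list at -0.33 to -0.30 over the deposited scale and the 5 other scalings. Without DLP replicate 8 and urethra replicates 7 and 8 the counts were 4 and 13 for fibroblasts and 3 and 16 for collagens. Single members differed in both directions. Col4a6, a basement membrane chain, had 80.8, 122, 139 and 134 TPM in DLP, against 23.2, 19.3, 14.9 and 20.7 TPM in urethra (2.54 ± 0.18). Ltbp2, an elastic fibre protein, had 1.64, 2.07, 1.19 and 1.72 TPM in DLP, against 26.9, 22.4, 18.9 and 23.3 TPM in urethra (-3.17 ± 0.13). Srd5a2, which turns testosterone into dihydrotestosterone, had 28.4, 19.5, 19.3 and 24.1 TPM in DLP, against 4.87, 4.46, 9.25 and 5.22 TPM in urethra (1.81 ± 0.20).

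Of 19 tested nerve genes, 6 were higher in DLP and 1 lower, beside 33.2% and 29.1% of all genes, and the others were not called. The list median was 1.28, against 0.05 for all genes. With T+E2 18 of 19 were higher and 1 lower (median 2.74), and the tissue difference itself changed with T+E2 in 0 of them. Dbh, the noradrenaline-making enzyme, had 8.40, 16.54, 22.2 and 15.8 TPM in DLP, against 0.0400, 1.41, 1.58 and 2.19 TPM in urethra (2.90 ± 0.36). Nefh, a neurofilament subunit, had 32.5, 49.9, 35.2 and 65.9 TPM in DLP, against 0.380, 1.69, 1.76 and 2.97 TPM in urethra (4.16 ± 0.31). Npy (3.17) and Th (1.67), both of sympathetic neurons, were higher in DLP, and Nos1, the neuronal nitric oxide synthase, which muscle fibres also make, was lower (-2.70). Urethra replicate 6 held the lowest share of nerve transcripts, 0.00447 percent, against 0.0242 to 0.0401 percent in the other urethra libraries. Without that library the value for Npy was 2.30. The part of striated muscle in the value of Nos1 was not tested.

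Schwann cell and fat markers were mixed. Of 13 Schwann cell genes 3 were higher in DLP and 6 lower, beside 33.2% and 29.1% of all genes. These counts turned to 6 and 3 after rescaling without secretion genes. Sox10, a transcription factor of neural crest and Schwann cells, was lower in DLP (-3.60 ± 0.11). Of 11 fat genes 5 were higher and 5 lower, beside 33.2% and 29.1% of all genes. The adipocyte genes Cfd (4.71, and 3.91 and 5.54 without urethra replicates 6 and 10 in turn), Adipoq (2.78) and Retn (3.11) were higher in DLP, whereas the adipocyte marker Fabp4 (-0.70) and Slc2a4 (-3.19) and Cd36 (-2.21), which striated muscle shares, were lower. The part of striated muscle in the values of Slc2a4 and Cd36 was not tested. Fabp4 had 144, 151, 79.8 and 221 TPM in DLP, against 215, 239, 235 and 226 TPM in urethra, so the groups overlapped. Its call was lost without DLP replicate 7, urethra replicate 7 or urethra replicate 8.

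Genes of macrophages and of antigen presentation were more often higher than lower in DLP. Of 18 macrophage genes 8 were higher and 0 lower, beside 33.2% and 29.1% of all genes. The lectin Clec10a was in front (21.9 ± 6.97 TPM in DLP and 4.04 ± 2.82 TPM in urethra; SD, n = 4 each; 2.32 ± 0.39). Of 16 antigen presentation genes 12 were higher, among them Cd74 (1.38), and 3 lower, among them H2-K1 (-0.83) and its regulator Nlrc5 (-1.29). The macrophage list took 0.0551 to 0.161 percent of TPM in DLP and 0.0429 to 0.0914 percent in urethra, ranges that overlapped. The count of 8 rested on single libraries: it fell to 5 without DLP replicate 7 or urethra replicate 6 and to 4 without DLP replicate 8, DLP replicate 10 or urethra replicate 8, and it was 14 without DLP replicate 9.

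In the Wnt pathway, members differed in both directions. Rspo3, a secreted amplifier of Wnt signals, had 28.1, 28.4, 28.3 and 29.6 TPM in DLP, against 1.31, 1.74, 2.12 and 1.68 TPM in urethra (3.46 ± 0.09). Axin2, a target and feedback inhibitor of the pathway, had 23.7, 24.6, 21.4 and 26.8 TPM in DLP, against 5.87, 4.98, 7.90 and 6.24 TPM in urethra (1.80 ± 0.12). The target Nkd1 (1.91) and the transcription factor Tcf7 (2.70) were higher as well, and the receptors Fzd4 (-2.11) and Lgr5 (-1.13) were lower. In all, 15 of 38 were higher and 12 lower, beside 33.2% and 29.1% of all genes, and 25 and 6 after rescaling without secretion genes.

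In the BMP list 11 were higher and 10 lower of 29, beside 33.2% and 29.1% of all genes, and 18 and 3 after that rescaling. The ligand Bmp7 had 38.5, 36.0, 50.2 and 49.7 TPM in DLP, against 4.46, 4.91, 11.6 and 4.83 TPM in urethra (2.66 ± 0.25). Its type I receptor Bmpr1b was higher too (3.15 ± 0.42, and 4.02 without DLP replicate 8 and urethra replicates 7 and 8), and the ligand Bmp6 was lower (-1.64). In the FGF list (5 higher and 9 lower of 16, and 7 and 5 after it), Fgf10, the stromal ligand needed for prostate budding, was higher (0.74) and the receptor Fgfr3 lower (-2.20 ± 0.13). Shh, the epithelial hedgehog ligand, was lower in DLP (4.34 ± 0.608 TPM in DLP and 8.32 ± 1.06 TPM in urethra; SD, n = 4 each; -0.80).

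Hormone and retinoid genes completed the signalling lists. Prlr, the prolactin receptor, had 71.3, 77.2, 70.5 and 75.1 TPM in DLP, against 6.61, 12.2, 17.7 and 8.76 TPM in urethra (2.68 ± 0.23). Esr1, the oestrogen receptor alpha, had 7.39, 9.84, 8.75 and 9.59 TPM in DLP, against 3.34, 3.74, 3.95 and 3.35 TPM in urethra (1.10 ± 0.10). Retinoid genes were lower in 9 of 18 and higher in 4, beside 29.1% and 33.2% of all genes. These counts were 5 and 8 after rescaling without secretion genes. The receptor Rxrg (-3.84) and the retinal dehydrogenase Aldh1a3 (-2.21) were lower, and the binding protein Crabp2 was higher (2.82).

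Markers of proliferation did not separate the tissues in one direction. Mki67 had 7.16 ± 1.28 TPM in DLP and 7.10 ± 1.05 TPM in urethra (SD, n = 4 each) and did not pass the test. Of 38 cell cycle genes 8 were higher and 2 lower, with Ccnd1, a G1 cyclin, the largest (1.43 ± 0.07). Both shares lay below the 33.2% and 29.1% of all genes. After rescaling without secretion genes 32 were higher, and without DLP replicate 8 and urethra replicates 7 and 8 3 were.

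The same tissue difference was measured again in the T+E2 libraries, which share no library with the untreated comparison. There 13241 genes were tested, and 4766 were higher in DLP and 3382 lower, 61.5% of those tested (36.0% higher, 25.5% lower). Of 8221 untreated calls tested in both, 6655 (81.0%) were called the same way with T+E2 and 42 the opposite way, and of 8104 T+E2 calls tested in both 82.1% were called the same way untreated. Of 2238 untreated calls of at least 2-fold, 2173 (97.1%) were called the same way and 2 the opposite way. Every skeletal muscle gene tested was again lower (33 of 33), and every seminal vesicle gene higher (9 of 9). Some other lists did not repeat in this way. Ribosomal protein genes went from 37 higher and 1 lower untreated to 10 and 2 of 49 with T+E2. Collagen chains went from 5 and 13 to 6 and 5 of 24, and fibroblast genes from 4 and 8 to 9 and 4 of 24. Elastic fibre genes went from 1 and 11 to 6 and 6 of 20, and antigen presentation genes from 12 and 3 to 8 and 7 of 16.

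Where the tissue difference itself was tested against treatment, 467 of 13424 genes (3.48%) differed. In 321 (2.39%) DLP over urethra was more positive with T+E2 and in 146 (1.09%) more negative, so 68.7% of these genes were on the positive side. That share was 53.9% with median-of-ratios scaling, 45.4% with quantile normalization and 39.7% with the length trend removed, so the balance between the directions depended on the scaling. Gpx3, a secreted glutathione peroxidase, had a log2 fold change of 5.40 with T+E2 and 2.62 untreated, a difference of 2.78 ± 0.58 (adjusted p = 0.0119). Saa3 went the other way, at -0.23 with T+E2 and 5.43 untreated (-5.66 ± 1.20, adjusted p = 0.0131). Pigr was at 2.79 with T+E2 and -0.11 untreated (2.89 ± 0.37), and Upk1a at 0.99 and -0.93 (1.92 ± 0.19). Pvalb was at -6.05 and -9.51 (3.46 ± 0.90), with the muscle share of the T+E2 DLP libraries at 0.0815 to 0.469 percent beside 0.0702 to 0.167 percent in untreated DLP, and the part of that share was not tested. The gland transcript 2310057J18Rik averaged 389 ± 593 TPM in T+E2 DLP and 94353 ± 23297 TPM in T+E2 urethra (SD, n = 4 each), and its change in the tissue difference (5.58 ± 2.03) did not pass the test.

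Cholesterol synthesis was the list with the most such genes: the difference was more positive with T+E2 in 19 genes and more negative in 0, and these counts were 19 and 0 under 4 other scalings and 22 and 0 when TPM was rescaled without genes over 5000 TPM. Untreated, 4 of 24 tested members were higher in DLP and 11 lower, beside 33.2% and 29.1% of all genes, and 15 and 4 after rescaling without secretion genes. Without DLP replicate 8, DLP replicate 10 or urethra replicate 8 in turn the count of higher members was 2. With T+E2 19 of 24 were higher and 2 lower. Insig1, the brake on the pathway, was at -1.002 with T+E2 and -2.15 untreated (1.15 ± 0.22), and Fdps, which makes farnesyl diphosphate, at 0.35 and -0.67 (1.02 ± 0.15), where the untreated value was -0.11 and not called after rescaling without secretion genes.

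**Figure D5:**
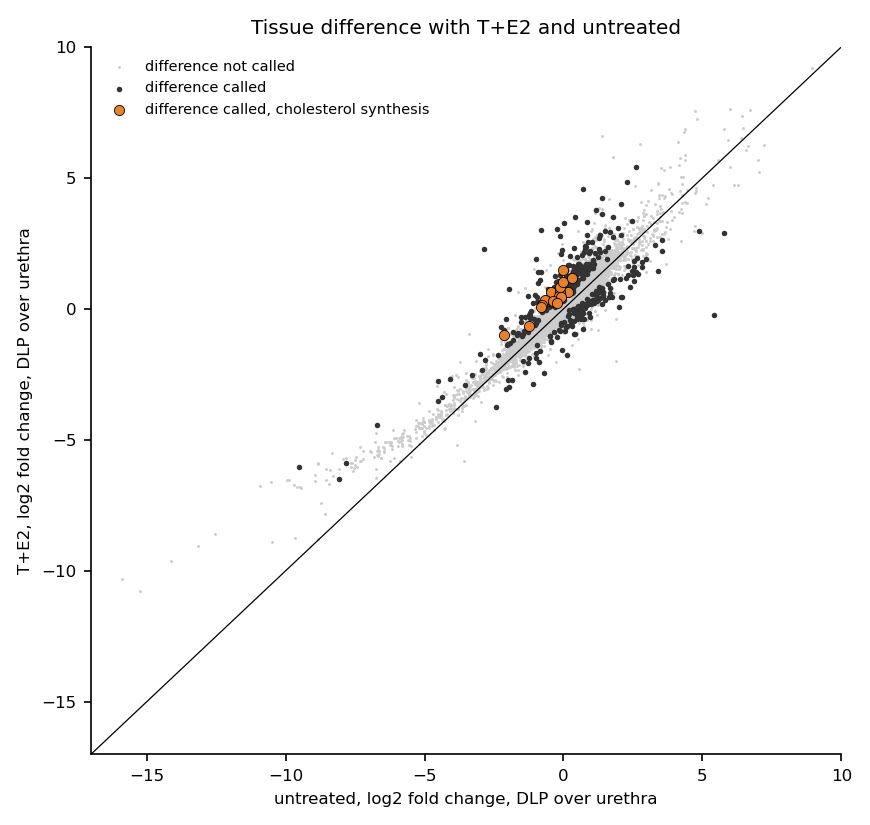
Log2 fold change of DLP over urethra with T+E2 (vertical axis) and untreated (horizontal axis) for each gene tested in both fits. Filled orange points are the called cholesterol synthesis genes of the test of the difference, dark points the other genes called by that test, and grey points the rest; the cholesterol points lie above the diagonal of equal values.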

How the data were processed

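Values were the TPM that the authors deposited for 13780 genes in 32 libraries, with no counts, so depth and counting error are unknown. STAR, RSEM, edgeR, FastQC and build mm9 are named, per the submitters' processing notes, without roles or versions. Each gene listed reached a mean of about 5 TPM in some group (lowest 4.998 TPM). All 32 value columns matched a sample, and no 2 columns were identical. From these values log2(TPM + 1) was tested by limma 3.58.1 (R 4.3.3, eBayes with the mean-variance trend, tissue as the only term), over genes with at least 1 TPM in at least 4 libraries of the comparison, with Benjamini-Hochberg adjustment over all genes tested at 0.05. A model of 4 group means gave the test of the tissue difference with T+E2 minus that untreated. The fit was tested on simulated data. Figures were drawn with matplotlib 3.10.9.

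Named genes were the 12 largest called differences per direction (no overlap, a mean of 20 TPM or more in the higher tissue, predicted genes and RIKEN transcripts left out), up to 5 called members per direction of each of 45 lists (mean of at least 5 TPM), and fixed panel and marker genes. The members and lists were chosen with earlier results of these data known. 2310057J18Rik, A4gnt, A630095E13Rik, Abpa, Abpb, C3, Car6, Gapdh, Gm7714, Hoxc9, Ldha, Myh2, Myh8, Myl3, Myod1, Myog, Odam, Prss32, Sbp, Slc12a2, Smr3a, Spink3, Svs3a, Tnnc1, Tnnc2, Tnnt1 and Wfdc2 were named after their values were seen, as were the 4 gene runs and the gland set. Some genes that the rule names are not reported here. Promoter sequences and gene order came from RefSeq (GRCm38.p6), another build than the files', through accessions that matched for 13637 genes. The rescaling without secretion genes took out 26 genes of 2 lists, since no member of the list of mitochondrial transcripts was among the genes used here. Alternatives changed the pseudocount, the filter, the scaling and limma's settings, removed a trend with transcript length (13718 genes with a length), used the number in the label as a block, and left out libraries.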

Additional observations from a re-analysis of the deposited data

Results flagged for a closer look

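Among 398 groups of 4 values, 53 had a lowest or highest value that stood apart from the other 3. The criterion was the gap as a part of the range of TPM, which about 1 group in 20 meets for normally distributed values. Where the other 3 values were 0, any value above 0 met it. This held for A4gnt, Car6, Gm7714, Myod1, Myog, Pip, Smr2 and Smr3a. Muscle and gland genes also moved together, so the 53 cannot be set against that rate. Of these, 28 were values of DLP replicate 8, all but the fatty acid enzyme Scd1 (107 TPM) higher than in the other DLP libraries. The skeletal muscle share was 0.167 percent there and the share of the urethral gland set 0.00261 percent. The muscle genes were Ckm (99.2 TPM), Tnnt3 (94.2 TPM), Mylpf (68.0 TPM), Eno3 (48.3 TPM), Myh1 (39.7 TPM), Atp2a1 (28.2 TPM), Pgam2 (18.6 TPM), Myh4 (13.6 TPM), Myl3 (12.4 TPM), Pvalb (10.1 TPM), Myh8 (5.26 TPM), Myh2 (0.96 TPM), Myog (0.16 TPM) and Myod1 (0.04 TPM). The gland genes were Prol1 (13.2 TPM), 2310057J18Rik (9.03 TPM), Gm7714 (2.04 TPM), Pip (1.03 TPM), Smr2 (0.47 TPM), Smr3a (0.12 TPM), A4gnt (0.08 TPM) and Car6 (0.06 TPM), the uroplakins were Upk3a (15.8 TPM) and Upk2 (13.7 TPM), and the matrix gene Ltbp1 stood at 8.88 TPM.

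In DLP replicate 7, the secretion genes Sbp (47958 TPM), Svs4 (17745 TPM) and Spink3 (13249 TPM) and the ion transport genes Slc12a2 (193 TPM) and Trpv6 (85.3 TPM) were high, and Fam115e (1534 TPM), Tagln (1174 TPM), Slc39a8 (60.5 TPM) and Jph2 (22.2 TPM) were low. In DLP replicate 9 Mt2 (1882 TPM) and Calca (0.74 TPM) were high. In urethra replicate 8, Msmb (8802 TPM), Bmp7 (11.6 TPM) and Srd5a2 (9.25 TPM) were higher, and Insig1 (96.6 TPM), Hoxd8 (7.81 TPM) and Prss32 (2.66 TPM) lower, than in the other urethra libraries. In urethra replicate 7 Saa3 was high (9.31 TPM) and Myh1 was low (1428 TPM). In urethra replicate 10, Svs2 (888 TPM), Ppp1r1b (129 TPM), Slc2a1 (18.2 TPM), Runx1 (7.44 TPM) and Nr4a3 (2.73 TPM) were high and Odc1 was low (81.9 TPM).

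For 15 of the named genes the tissue difference itself differed with T+E2 by limma's interaction term. On the log2 scale, T+E2 minus untreated, it was more positive for Pvalb (3.46), Pigr (2.89), Gpx3 (2.78), Upk1a (1.92), Insig1 (1.15), Tnnc1 (1.06), Fdps (1.02), Ern1 (0.72) and Esr1 (0.63). It was more negative for Saa3 (-5.66), Col4a6 (-1.49), Cxcl9 (-1.40), Slc39a8 (-1.19), Nlrc5 (-0.79) and Krt23 (-0.71).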

How the results depend on the processing

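Of 195 named genes tested, 188 were called, and 182 of these kept direction and call under every alternative that gave them a value, which was all 22 for 149 of them. The other 33 had no value under at least 1, where a rescaling or the 5 TPM filter left them out. Fabp4, Upk3a, Fdps, Msmb, Svs4 and Timp4 lost the call under at least 1, and all 7 uncalled genes were called under at least 1. Rescaling without the prostate secretion and seminal vesicle lists gave 9626 genes higher in DLP and 1858 lower untreated (4405 and 3870 as reported), and 9745 higher and 1589 lower with T+E2, which is 86.0% of calls on the higher side, against 58.5%. Leaving out 1 library at a time gave 3859 to 4921 higher and 3587 to 3934 lower untreated, 4110 to 5138 higher and 3075 to 3394 lower with T+E2, and 233 to 454 more positive and 98 to 187 more negative tissue differences with T+E2. Without DLP replicate 8 and urethra replicates 7 and 8, 2879 genes were higher untreated, and 199 differences were more positive and 70 more negative. Other settings moved the counts of these differences, 321 more positive and 146 more negative as reported, to 315 more negative (median-of-ratios), 413 more negative (quantile), 728 more positive and 594 more negative (arrayWeights), 554 more positive (without genes over 5000 TPM) and 470 more negative (length trend removed). The cause was not tested. Some list medians were negative on the deposited scale and turned positive only under the rescaling without secretion genes. These were the fibroblast, collagen, Schwann cell, fat, hedgehog, FGF, retinoid, cholesterol, immediate early, and water and ion transport lists.

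With the replicate number as a block, 7023 genes were called untreated, and 2823 were higher and 2107 lower with T+E2, where only the numbers 1 and 2 are shared, and 36 differences were more negative. The correlations of deviations between libraries with the same number in both untreated tissues were 0.18 for 7, -0.14 for 8 and 0.15 for 10, so not every pair was positive. DLP replicates 7 and 10 correlated best with the urethra library of their own number, and DLP replicate 8 did not. Urethra replicate 10 correlated best with DLP replicate 8 (0.19), and the numbers were not read as pairs. Sbp (2.83), Spink3 (2.19) and Pigr (-0.40) were called with the block. TPM keeps no depth, so the precision of low values is unknown.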

Other observations

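Genes of the interferon response, the antiviral programme of most cell types, gave different counts in untreated and treated tissue. Of 30 tested, 11 were higher and 2 lower in untreated DLP over urethra, with a median log2 fold change of 0.41, beside 33.2% and 29.1% of all genes and a median of 0.05 over all genes. Mx1, an antiviral GTPase, had 6.91, 6.71, 7.75 and 8.59 TPM in DLP, against 1.83, 2.17, 2.23 and 2.74 TPM in urethra. The chemokine Cxcl9 had 6.33, 8.72, 3.79 and 6.47 TPM in DLP, against 1.43, 2.41, 1.74 and 3.49 TPM in urethra. The DLP libraries lay above every urethra library for both genes. Leaving out 1 library at a time gave 5 (without DLP replicate 7) to 17 (without DLP replicate 10) members higher. With T+E2, 2 of 29 were higher and 16 lower, and for 4 members, Cxcl9 among them, the tissue difference itself was more negative with T+E2. After rescaling without the prostate secretion and seminal vesicle lists 25 were higher and 0 lower in untreated DLP. Without DLP replicate 8 and urethra replicates 7 and 8 the counts were 7 and 1.

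Of 20 elastic fibre genes 1 was higher and 11 were lower in untreated DLP (median -0.58). The lower ones included the TGF-beta binding protein genes Ltbp4 (-1.39 ± 0.14) and Ltbp1 (-1.17 ± 0.13) and the microfibril gene Mfap4 (-1.26 ± 0.16), given as log2 fold change ± SE. After that rescaling the elastic fibre counts were 5 higher and 8 lower. Of 24 immediate early genes, which are induced within minutes of a stimulus, 6 were higher and 10 lower (median -0.26). These counts stand beside 33.2% and 29.1% of all genes, and 12 were higher and 5 lower after rescaling. The nuclear receptor Nr4a3 had 26.3, 27.0, 21.4 and 27.8 TPM in DLP, against 1.63, 1.43, 1.42 and 2.73 TPM in urethra. Its relative Nr4a1 had 13.5, 14.1, 17.1 and 16.3 TPM in DLP, against 61.1, 68.9, 67.5 and 64.2 TPM in urethra, so these relatives differed in opposite directions.

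The counts in this paragraph stand beside 33.2% higher and 29.1% lower among all genes tested. Of 35 genes of the unfolded protein response and of folding in the endoplasmic reticulum, 18 were higher and 7 lower, and 29 and 3 after rescaling. The stress sensor Ern1 (1.25 ± 0.10) was among the higher and Herpud1 (-1.07 ± 0.08), which acts in the disposal of misfolded proteins, among the lower. Of 13 products of other accessory glands and ducts 8 were higher, such as Crisp1 (2.95 ± 0.17), best known as an epididymal secretion, and 5 lower. Of 12 urothelium genes 5 were higher, led by the tight junction gene Cldn8 (2.91 ± 0.20), and 4 lower, among them the keratin Krt23 (14.4 ± 1.92 TPM in DLP and 60.5 ± 5.37 TPM in urethra, SD, n = 4 each). Of 6 neuroendocrine genes 1 was higher and 1 lower, Calca (-2.92 ± 0.23), which encodes calcitonin and a sensory neuropeptide. Of 16 steroid receptor and enzyme genes 6 were higher and 5 lower, and 12 and 1 after rescaling. Of 19 polyamine genes 7 were higher and 6 lower, and 12 and 2 after rescaling. Of 14 hedgehog pathway genes 2 were higher and 4 lower, and 9 and 3 after rescaling. Of the 9 squamous epithelium genes tested 4 were higher and 2 lower, and of the 5 lymphocyte genes tested 4 were higher and 0 lower, or 2 and 0 without the 3 libraries named above.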
